A study of Homo sapiens with 2 samples.

Results

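The chemokines and their receptors were described in blood-generating heart-forming organoids (BG-HFOs), in which cardiac tissue, vessels and blood cells form together from human pluripotent stem cells. A gene was taken when its symbol was that of a CCL, CXCL, XCL or CX3CL ligand, a CCR, CXCR, XCR or CX3CR receptor, or an atypical chemokine receptor (ACKR), with *CXCL12*, *CXCR4* and *ACKR3* left out. By this rule 60 of the 36601 genes in the count tables were members, 40 ligands, 17 receptors and 3 atypical receptors. At least 1 molecule was counted for 59 of them. *CCL11* had none, and 6 others (*CCL16*, *CCL19*, *CCR8*, *CXCL9*, *CXCR1* and *CXCR3*) had 1 to 10 in all cells. After the filter on low counts 37 of the 60 could be tested (24 of the 40 ligands and 13 of the 20 receptors and atypical receptors). The other 23 had 0 to 112 UMIs each (unique molecular identifiers, a count of molecules) in the lineages compared, with a median of 23. None exceeded 2.16 counts per 1000000 UMIs (CPM) in any of them, which was the level of *CCL26* in the neutrophil lineage of organoid 33.10.

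Only 1 condition was sequenced, with 2 organoids that were cultured and dissociated separately (32.7 and 33.10 in the labels), so lineages were compared with each other rather than treatments. Both came from hES3 NKX2.5-eGFP, a human embryonic stem cell line in which green fluorescent protein reports the cardiac gene *NKX2-5*, and were taken on day 14. They were aggregates in Matrigel, a basement membrane extract, that had received a WNT activator and then a WNT inhibitor, together with growth factors and cytokines that favour blood and endothelium. The cells thus share 1 genetic background, and the organoids are repeats of 1 protocol.

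Chemokines are small secreted proteins that direct the migration of leukocytes along a gradient. They are grouped by the spacing of their first cysteines, and they act through receptors that couple to inhibitory G proteins, whereas atypical receptors bind and clear or transport them without that signal. In macrophages and stromal cells many of the inflammatory ligands are induced by NF-κB, and platelets carry chemokines in their granules, where *PF4*, *PPBP* and *CCL5* are the known abundant ones.

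Many members are genomic neighbours. On chromosome 17 lie 15 ligands and 2 receptors, on chromosome 4 lie 10 ligands, and on chromosome 3 lie 10 receptors and 2 atypical receptors. The neutrophil-attracting ligands follow each other on chromosome 4 (GRCh38, GENCODE annotation) in the order *CXCL8* (73740519 to 73743716), *CXCL6* (73836640 to 73849064), *CXCL1* (73869393 to 73871308), *CXCL5* (73995642 to 73998677), *CXCL3* (74036589 to 74038807) and *CXCL2* (74097040 to 74099196). The first 3 are transcribed from the plus and the last 3 from the minus strand. Their promoters are shown because these genes were all higher in the megakaryocyte than in the erythroid lineage (described below the cell numbers). A further reason is that their windows share a stretch that few promoters hold. The windows run from 250 bases before to 50 bases after the transcription start (RefSeq, GRCh38.p14). The 9 capital letters mark GGAATTTCC, a form of the NF-κB recognition sequence, with 25 bases on each side, and each line is read 5′ to 3′ on the gene's own strand.

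CXCL8: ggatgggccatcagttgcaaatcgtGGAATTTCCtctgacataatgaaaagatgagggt
CXCL6: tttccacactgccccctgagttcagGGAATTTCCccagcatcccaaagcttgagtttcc
CXCL1: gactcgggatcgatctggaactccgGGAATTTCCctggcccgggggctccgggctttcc
CXCL5: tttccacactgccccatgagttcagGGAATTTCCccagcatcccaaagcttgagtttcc
CXCL3: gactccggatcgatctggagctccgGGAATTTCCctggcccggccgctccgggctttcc
CXCL2: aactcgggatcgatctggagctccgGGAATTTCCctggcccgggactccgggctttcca

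The windows shown lie at chr4:73740453-73740511 (*CXCL8*), chr4:73836564-73836622 (*CXCL6*), chr4:73869290-73869348 (*CXCL1*), chr4:73998734-73998792 (*CXCL5*), chr4:74038734-74038792 (*CXCL3*) and chr4:74099239-74099297 (*CXCL2*). The capitals begin 77 to 91 bases before the RefSeq start, which is not always the GENCODE gene start listed above. The window of *CXCL3*, for example, lies within the GENCODE span of that gene. *CXCL5* and *CXCL6* are nearly the same around them, as are *CXCL1*, *CXCL2* and *CXCL3*. Searched on both strands, GGAATTTCC was found in 162 of 35116 promoter windows (0.461%) and in 8 of the 54 member windows that RefSeq gave, those 6 and *CXCL10* and *CXCL11*, where it reads on the strand opposite to the gene. An AP-1 type sequence, TGANTCA, was found in 2707 windows (7.71%) and in windows of 9 members, which is a count of genes. A STAT type sequence, TTCNNNGAA, was found in 2689 windows (7.66%) and in windows of 12 members, again a count of genes. It overlapped GGAATTTCC in *CXCL5* and *CXCL6*. A match describes these letters and shows neither binding nor use. Read ends from near-identical copies can be split or lost in counting, so values of *CXCL1*, *CXCL2* and *CXCL3* against each other, of *CXCR1* and *CXCR2*, of *XCL1* and *XCL2*, and of *CCL3* and *CCL4* against their copies *CCL3L1* and *CCL4L2*, are uncertain. *CCR1* lies inside the span of *CCR3* on the other strand. Since introns were counted and the use of strand is not given in the sources used here, their counts may not be fully separate.

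The deposited counts are UMIs of each gene in each barcode, which stands for a cell. Organoid 32.7 gave 16866 barcodes and 191152562 UMIs (median 7842 per barcode) and organoid 33.10 gave 19948 barcodes and 233818881 UMIs (median 8284.5). The libraries shared 100 barcode sequences. Cells were placed in 15 lineages by summed raw UMIs of marker genes that are not members, for example *C1QA*, *C1QB* and *C1QC* for macrophages, and the UMIs of each lineage were summed per organoid and expressed as CPM of that lineage. In organoids 32.7 and 33.10 there were 735 and 2134 cells in the megakaryocyte lineage, 620 and 1691 erythroid cells and 476 and 212 macrophages. The megakaryocyte lineage needed at least 8 UMIs over *ITGA2B*, *GP9*, *GP1BB*, *ITGB3*, *TUBB1* and *GP6*, so cells with fewer were left out of it. Monocytic cells numbered 100 and 42, and cells of the neutrophil lineage 148 and 23. The eosinophil lineage held 67 and 63 cells, and there were 65 and 88 progenitors. Endothelial cells were divided into arterial (1158 and 1088), venous (605 and 588) and other (876 and 1014). Cardiomyocytes numbered 1196 and 1210. Mesenchymal cells were divided into epicardial cells (876 and 1372), *LUM*-high mesenchyme (939 and 366) and other mesenchyme (1987 and 2014). Epicardial cells needed at least 3 UMIs over *WT1*, *TBX18*, *UPK3B*, *ALDH1A2* and *TCF21*. The study assigns its mesenchymal cluster with *WT1* and *TBX18* to proepicardium and septum transversum, so the name epicardial covers such cells here. The endoderm gate held 147 and 12 cells and was left out of the fit, which used the other 14 lineages.

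A gate is a range on a score and not a sharp class. Between 0.546% and 39.8% of the cells of a fitted lineage lay from its threshold to 1.5 times it, most of all in the progenitors of organoid 33.10. In every fitted lineage the median UMIs of each other gate compared were at most 6 per cell. The arterial, venous, epicardial and *LUM* gates were left out of this comparison. For the myeloid and progenitor lineages the macrophage, monocytic and progenitor gates were left out too, so overlap among them was not measured. The progenitor gate rests on *MYB*, *SPN* and the pan-leukocyte gene *PTPRC*. The monocytic cells are C1Q-low, since they had fewer than 5 C1Q UMIs and were not free of them. Leukocyte genes fixed as a check (*PTPRC*, *TYROBP*, *FCER1G*, *LAPTM5*, *CD53* and *CORO1A*) summed to 4083 and 3978 CPM in macrophages, 3524 and 3629 CPM in monocytic cells, 1174 and 1173 CPM in the megakaryocyte lineage and 69 and 93 CPM in erythroid cells. Lymphoid genes fixed as a further check were *CD3D*, *CD3E*, *CD79A*, *MS4A1*, *NKG7* and *GNLY*. They summed to 420 and 412 CPM in macrophages, 565 and 405 CPM in monocytic cells and 446 and 374 CPM in the neutrophil lineage. Of the 6 genes, 3 had a UMI in both organoids in macrophages, 1 in monocytic cells and 3 in the neutrophil lineage. No such sum thus stands for the whole list. In the megakaryocyte lineage the 6 genes summed to 9.60 and 11.1 CPM and in erythroid cells to 2.37 and 2.19 CPM.

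Ligands were carried mainly by the megakaryocyte lineage, macrophages and monocytic cells, by the mesenchyme and epicardium and, in organoid 32.7, by progenitors, whereas receptors were carried mainly by macrophages and monocytic cells. The 40 ligands summed to 1133 and 664 CPM in the megakaryocyte lineage, 856 and 639 CPM in macrophages and 235 and 1664 CPM in monocytic cells. In progenitors they summed to 652 and 98.6 CPM, of which *CCL1* made up 543 and 0 CPM. In the tissue lineages they summed to 391 and 461 CPM in epicardial cells, 275 and 366 CPM in *LUM*-high mesenchyme and 304 and 311 CPM in other mesenchyme, but to 33.3 and 31.8 CPM in arterial endothelium and 19.6 and 25.5 CPM in erythroid cells. The 20 receptors and atypical receptors summed to 213 and 220 CPM in macrophages and 170 and 206 CPM in monocytic cells, followed by 131 and 46.5 CPM in progenitors. They stayed between 5.09 and 32.4 CPM in every other fitted lineage of either organoid. The heat map of levels sets out the 13 members described in full, those that reached 20 CPM and 10 UMIs in the same lineage in both organoids (11 ligands and the receptors *CCR1* and *CX3CR1*).

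**Figure D1:**
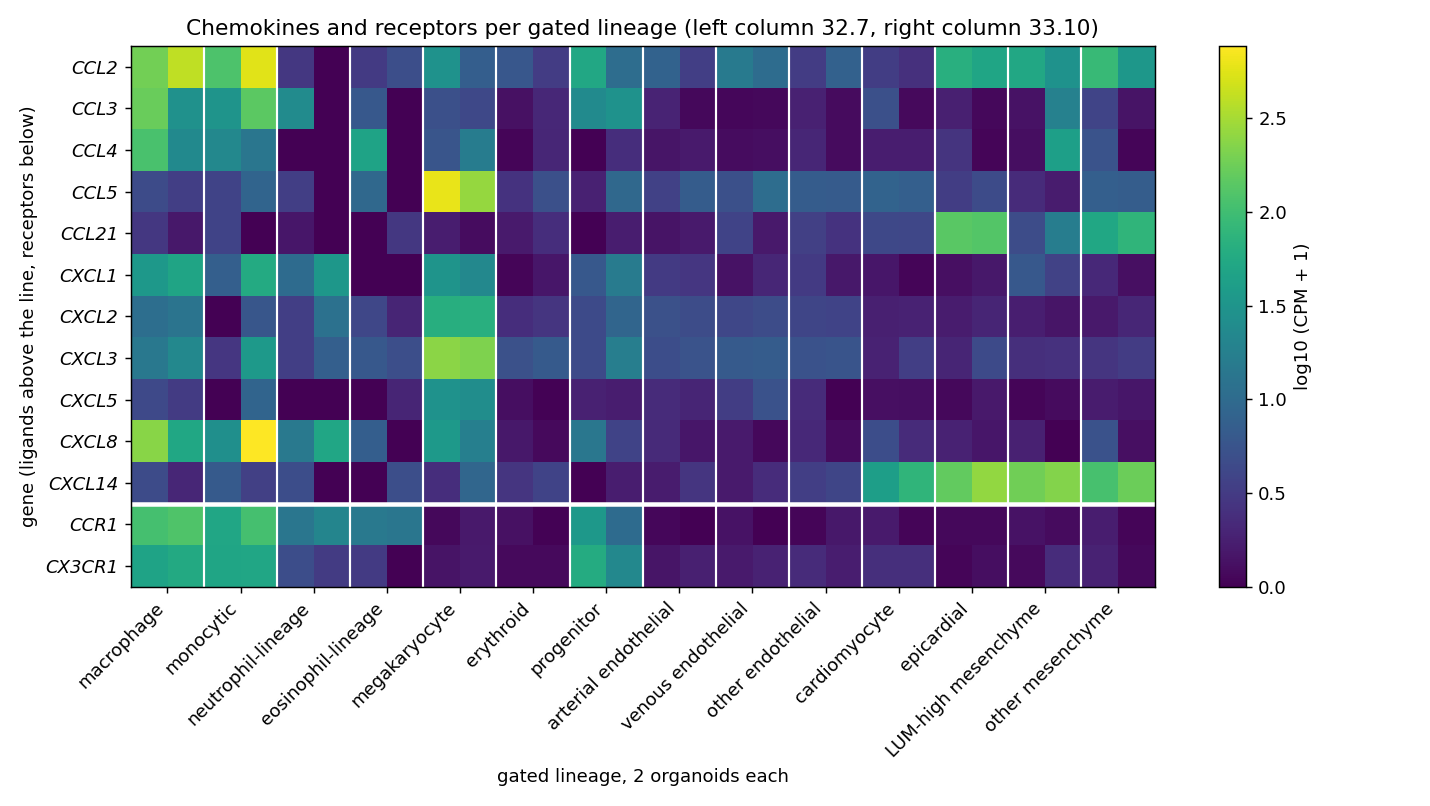
Levels of the described chemokine and receptor genes (rows) in each gated lineage (columns), coloured by log10 of the level plus 1, the level in counts per 1000000 UMIs (CPM). Organoid 32.7 is the left and 33.10 the right column of each lineage. *CCL5*, *CXCL3* and *CXCL2* are high in the megakaryocyte lineage, and *CCR1* and *CX3CR1* in macrophages and monocytic cells. *CXCL14* is high in epicardial cells and both mesenchymal lineages, and *CCL21* in epicardial cells and other mesenchyme.

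The megakaryocyte and erythroid lineages, which share a progenitor, were compared first. The megakaryocyte lineage carried more of the platelet chemokine *CCL5* and of the whole *CXCL1* to *CXCL6* group than the erythroid lineage. *CCL5*, which attracts monocytes and T cells and is stored in platelet granules, was at 609 and 266 CPM in the megakaryocyte lineage of organoids 32.7 and 33.10 and at 1.67 and 4.06 CPM in erythroid cells. *CXCL3* was at 244 and 212 CPM against 4.22 and 5.56 CPM. *CXCL2* was at 62.6 and 65.1 CPM against 1.41 and 1.77 CPM. These ligands of the neutrophil receptor CXCR2 were thus close between the organoids, and the lineages did not overlap. *CXCL1*, another CXCR2 ligand, was at 30.3 and 21.3 CPM against 0.0879 and 0.514 CPM. *CXCL5* was at 28.8 and 25.1 CPM against 0.264 and 0.0467 CPM, and *CXCL6*, which also binds CXCR1, at 7.65 and 7.86 CPM against 0.439 and 0.794 CPM. *CXCL1* and *CXCL6* were not confined to the megakaryocyte lineage. In macrophages of organoid 32.7 they reached 109% and 68.0% of their megakaryocyte levels. In monocytic cells of organoid 33.10 they reached 268% and 127%, although *CXCL6* had only 4 UMIs in monocytic cells. *CCL5*, *CXCL2*, *CXCL3* and *CXCL5* reached at most 29.7% in any of the other 13 fitted lineages.

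With the quasi-likelihood test of edgeR, adjusted by Benjamini and Hochberg's method over all 20402 genes tested, 15 of the 37 members differed between the megakaryocyte and erythroid lineages, where 48.1% of all genes did. Of these, 13 were higher and 2 lower in the megakaryocyte lineage, where 24% and 24.1% of all genes were. The median log2 fold change was 1.75 over the tested members and 0.02 over all genes. Here and below, ± gives a standard error (SE) on the log2 scale that was derived from the test statistic. It rests on a spread estimated over all 14 fitted lineages, and is not the scatter of 1 gene over 2 organoids. *CXCL5* differed by 7.38 ± 0.70 (edgeR adjusted p = 1.63e-08), *CCL5* by 6.88 ± 0.47 (edgeR adjusted p = 7.31e-11) and *CXCL1* by 5.86 ± 0.70 (edgeR adjusted p = 5.35e-07). The other members of the chromosome 4 group were higher too, *CXCL3* by 5.24 ± 0.38 (edgeR adjusted p = 1.77e-10), *CXCL2* by 5.02 ± 0.30 (edgeR adjusted p = 8.47e-12), *CXCL6* by 3.28 ± 0.54 (edgeR adjusted p = 3.59e-05) and *CXCL8*, the classical neutrophil attractant, by 6.03 ± 1.39 (edgeR adjusted p = 0.000951). These are the genes whose promoters are printed above, and they were chosen for their levels in this lineage. *CXCL8*, however, was at 35.05 CPM in the megakaryocyte lineage of organoid 32.7, with 33.7% of its UMIs in 1 cell. With each cell thinned to 3000 UMIs it was found in 3.23% and 1.78% of that lineage. Its level was higher in macrophages (232 and 51.5 CPM), and its highest mean was in monocytic cells (396 CPM).

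Of the remaining higher calls, *CXCL16*, a membrane-bound ligand that also takes up lipoproteins, was at 5.42 and 5.86 CPM in the megakaryocyte lineage and differed by 3.88 ± 0.43 on the log2 scale (edgeR adjusted p = 1.17e-07). *CCL23*, a ligand of CCR1, was at 2.09 and 0.976 CPM, and its ratio to erythroid cells was 41.8 (exact 95% counting interval 7.02 to 1700, from few erythroid UMIs; edgeR adjusted p = 5.31e-05). *CCL4*, which attracts monocytes and T cells, was at 4.73 and 15.4 CPM and differed by 3.71 ± 1.46 (edgeR adjusted p = 0.0408), a call that was lost without either organoid (edgeR adjusted p = 0.123 without 32.7 and 0.319 without 33.10). *CCR4*, a receptor of T cells that has also been described on platelets, was at 7.23 and 6.73 CPM against 0.0879 and 0.0934 CPM, a ratio of 75.1 (25.3 to 367; edgeR adjusted p = 2.7e-07). It was the only receptor that was higher in the megakaryocyte than in the erythroid lineage by this test. *CXCL10* and *CXCL11*, interferon-induced ligands of CXCR3, were also called (log2 5.37 ± 1.39 and 5.61 ± 1.19, edgeR adjusted p = 0.00336 and 0.000702). Their levels, however, were 47.8 and 4.01 CPM and 16.8 and 2.72 CPM, and 98.5% and 82.6% of their UMIs in organoid 32.7 came from 1 cell each. Without organoid 32.7 neither passed the edgeR test (adjusted p = 0.326 and 0.0673).

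The erythroid lineage was higher in a homing receptor and a decoy. *CCR7*, the receptor for lymph node homing, was at 1.58 and 3.31 CPM in erythroid cells and 0.974 and 0.668 CPM in the megakaryocyte lineage (log2 fell by 1.96 ± 0.54 from erythroid to megakaryocyte, edgeR adjusted p = 0.00527). *ACKR1*, the Duffy antigen that red cells use to bind chemokines, was at 3.16 and 2.47 CPM against 0.417 and 0.873 CPM (log2 fell by 2.22 ± 0.47, edgeR adjusted p = 0.000714). Both were at low levels, although their lineages did not overlap. Without organoid 33.10 *CCR7* lost its call (edgeR adjusted p = 0.427), and without 32.7 *ACKR1* did (edgeR adjusted p = 0.0549).

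**Figure D2:**
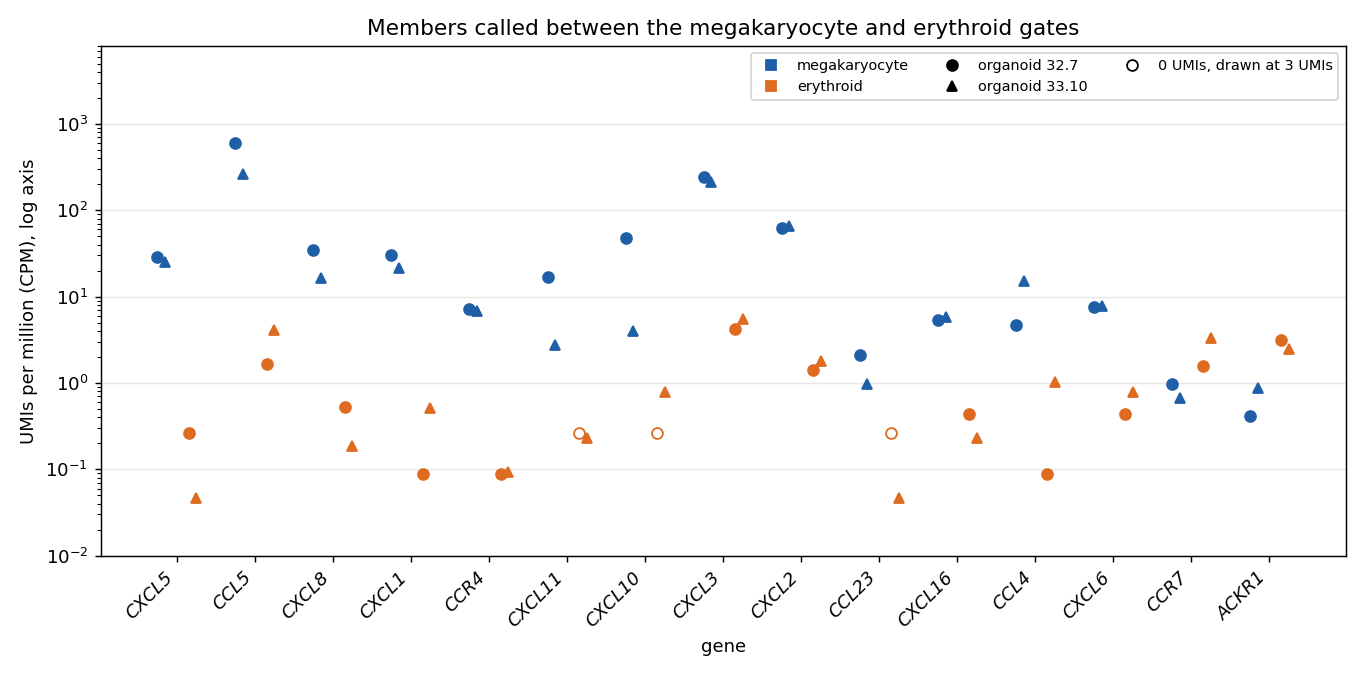
Levels (CPM, log axis) of the 15 called members in the megakaryocyte (blue) and erythroid (orange) lineages, circles for organoid 32.7, triangles for 33.10 and open symbols for 0 UMIs, drawn at 3 UMIs. The points of *CCL5*, *CXCL3* and *CXCL2* in the megakaryocyte lineage lie between 62.6 and 609 CPM and those in erythroid cells between 1.41 and 5.56 CPM.

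The share of cells with the transcript followed the levels. After each cell was thinned to 3000 UMIs, *CCL5* was found in 41.2% and 29.6% of the megakaryocyte lineage and in 0.842% and 0.936% of erythroid cells (51% and 39.5% against 1.85% and 2.18% without thinning). *CXCL3* was found in 45.7% and 42.4% against 1.52% and 2.12% (70.8% and 69.5% against 3.2% and 4.87% without thinning). *CXCL5* was found in 5.82% and 6.19% against 0% in both, where 594 and 1602 erythroid cells were deep enough. Erythroid cells were the deeper cells, with a median of 14978.5 and 9993 UMIs against 7740 and 7470 UMIs in the megakaryocyte lineage, and 116 and 227 cells of the latter were too shallow to be thinned. Free RNA was not removed from the counts. As a scale for it, *PF4* and *PPBP*, the platelet chemokine genes whose names fall outside the rule, were at 15436 and 14509 CPM and at 12476 and 10236 CPM in the megakaryocyte lineage. In erythroid cells they were at 0.281% and 0.655% (*PF4*) and 0.259% and 0.572% (*PPBP*) of those levels. *CCL5* in erythroid cells was at 0.274% and 1.53% of its level in the megakaryocyte lineage, *CXCL3* at 1.73% and 2.62% and *CXCL2* at 2.25% and 2.73%. The erythroid share of *CCL5* in organoid 32.7 was thus near that of *PF4*, and those of *CXCL2* and *CXCL3* lay above it in both organoids. The part of free RNA in these values was not tested.

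Other genes of the pathway moved in the same comparison. All 6 chemokine family genes outside the symbol rule (*PF4*, *PPBP*, *PF4V1*, *CCRL2*, *CCL3L1* and *CCL4L2*) and all 10 genes of receptor signalling tested (*GNAI2*, *PIK3CG*, *DOCK2* and others) were higher in the megakaryocyte than in the erythroid lineage. *CCRL2*, an atypical receptor that presents chemerin, was at 17.7 and 18.7 CPM against 0.791 and 2.10 CPM. *PIK3CG*, the kinase that G protein-coupled receptors activate in leukocytes and platelets, was at 17.0 and 16.1 CPM against 0.879 and 1.68 CPM. Of 10 inflammatory genes 7 were higher, among them *TNF*, and of 10 immediate early genes, which also rise during dissociation, 8 were higher. Of 7 proteases that shed or trim chemokines 1 was higher. Beside these counts, 24% of all genes were higher in the megakaryocyte lineage in this comparison. The part of dissociation in the ligand levels was not tested.

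Among the myeloid cells, macrophages and monocytic cells carried *CCL2*, *CCL3*, *CXCL8* and the receptors *CCR1* and *CX3CR1*. *CCL2*, which draws monocytes through CCR2, was at 184 and 401 CPM in macrophages, 120 and 567 CPM in monocytic cells and 1.91 and 0 CPM in the neutrophil lineage. *CXCL8* was at 232 and 51.5 CPM in macrophages, 26.1 and 766 CPM in monocytic cells and 13.9 and 49.7 CPM in the neutrophil lineage. *CCL3*, a ligand of CCR1, was at 165 and 27.5 CPM in macrophages and 29.8 and 144 CPM in monocytic cells. The order of macrophages and monocytic cells turned between the organoids for all of *CCL2*, *CXCL8* and *CCL3*. *CCL4* was at 114 and 22.4 CPM in macrophages and 21.4 and 12.4 CPM in monocytic cells, with the same order in both. That order rests on few cells. In macrophages of organoid 33.10, 64.3% of the *CCL4* UMIs came from 1 cell, and the level without it was 8.07 CPM. In monocytic cells of organoid 32.7 the 23 UMIs came from 2 cells. *CCL4* was not called between these lineages (edgeR adjusted p = 0.549). The eosinophil lineage held *CCL4* at 45.9 CPM in organoid 32.7, from 44 UMIs in 10 cells, and at 0 CPM in organoid 33.10. *CXCL1* was at 33.2 and 47.2 CPM in macrophages and 6.52 and 57.2 CPM in monocytic cells, and its order turned as well. *CCL13*, a further CCR2 ligand, was at 13.1 and 31.0 CPM in macrophages.

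The receptors of mononuclear phagocytes were found in the same cells. *CCR1*, which binds CCL3, CCL5 and CCL23, was at 106 and 123 CPM in macrophages, 50.3 and 107 CPM in monocytic cells, 12.4 and 19.4 CPM in the neutrophil lineage and 13.6 and 12.6 CPM in the eosinophil lineage. *CX3CR1*, the fractalkine receptor of tissue macrophages and patrolling monocytes, was at 45.6 and 55.2 CPM in macrophages, 48.4 and 49.7 CPM in monocytic cells and 3.82 and 2.16 CPM in the neutrophil lineage. *CCR2*, the CCL2 receptor by which monocytes leave the marrow, was at 15.6 and 8.27 CPM in macrophages and 27.9 and 7.46 CPM in monocytic cells. *CCR6*, the receptor for CCL20, was at 28.8 and 14.9 CPM and 26.1 and 17.4 CPM in the same order. *CCR3*, known as the eosinophil receptor for eotaxins, had its highest mean in macrophages (5.63 and 6.67 CPM). Its ligand gene *CCL11* had no UMI, and the other eotaxin genes, *CCL24* and *CCL26*, had 33 and 129 UMIs in all. *CX3CL1*, which encodes fractalkine, had 193 UMIs in all and its highest mean was 1.30 CPM, in epicardial cells.

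**Figure D3:**
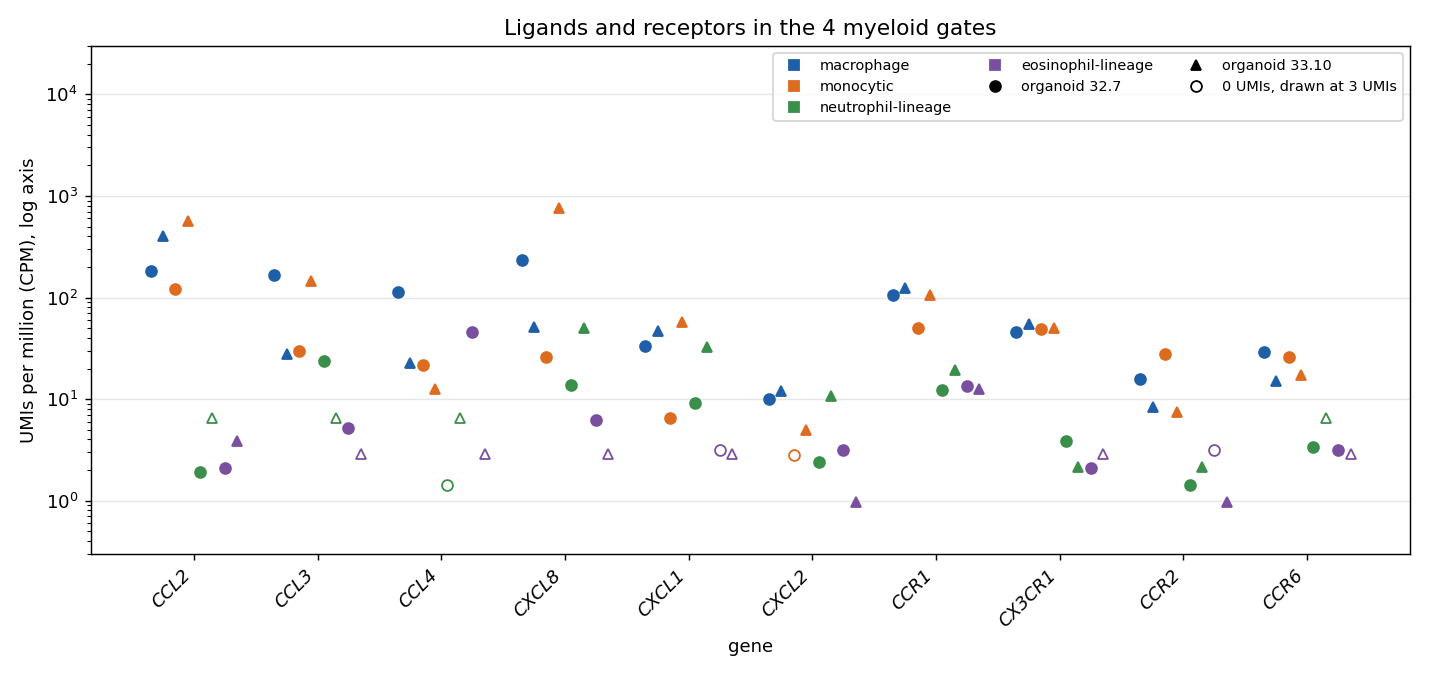
Levels (CPM, log axis) of myeloid ligands and receptors in macrophages, monocytic cells and the neutrophil and eosinophil lineages (colours), circles for organoid 32.7, triangles for 33.10 and open symbols for 0 UMIs, drawn at 3 UMIs. *CCR1* and *CX3CR1* lie between 45.6 and 123 CPM in macrophages and monocytic cells, while *CXCL8* spans 26.1 to 766 CPM there.

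Between monocytic cells and the neutrophil lineage 7 of the 37 members differed, all higher in monocytic cells, where 6.95% of all genes differed (3.65% higher and 3.3% lower). The median log2 fold change was 1.86 over the members and 0.00 over all genes. The member median was the value of *CCL3*, which was not called (edgeR adjusted p = 0.468). Members with no UMI in the neutrophil lineage had large values from few monocytic UMIs. Examples were *CCL1* (log2 8.29 from 7 against 0 UMIs) and *CCL28* (5.53 from 1 against 0). The median is therefore no measure of a shift of the members. *CCL2* differed by 7.44 ± 1.36 on the log2 scale (edgeR adjusted p = 0.00117), *CX3CR1* by 3.70 ± 0.67 (edgeR adjusted p = 0.00105) and *CCR1* by 2.23 ± 0.55 (edgeR adjusted p = 0.0134). *CCR2* (3.62 ± 0.99, edgeR adjusted p = 0.0335), *CCR6* (3.02 ± 0.90, edgeR adjusted p = 0.0453) and *CXCL8* (3.74 ± 1.12, edgeR adjusted p = 0.0453) passed near the threshold. Receptors of mononuclear phagocytes were thus among the calls. The arms are small, with 42 monocytic cells and 23 of the neutrophil lineage in organoid 33.10, and no call held both without organoid 32.7 and without 33.10. *CCL2* passed without 32.7 alone (edgeR adjusted p = 0.0451, and 0.0543 without 33.10) and *CX3CR1* without 33.10 alone (edgeR adjusted p = 0.0171, and 0.167 without 32.7). Of 10 inflammatory genes 6 were also higher in monocytic cells (*IL1B* at 53.1 and 107 CPM against 4.30 and 15.1 CPM), and the proteases *ELANE* and *CTSG* were lower; *ELANE* is a gate gene of the neutrophil lineage.

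Macrophages and monocytic cells differed in 1 of the 37 members, where 1.57% of all genes differed (1.36% higher and 0.216% lower in macrophages). It was *CXCL2*, at 10.1 and 12.0 CPM in macrophages and 0 and 4.97 CPM in monocytic cells (117 against 2 UMIs, ratio 7.95 with an exact 95% counting interval of 2.15 to 66.4, edgeR adjusted p = 0.0351). The call was lost under 8 of the other settings tried and without organoid 32.7. Eosinophil- and neutrophil-lineage cells differed in 0 of 37 by edgeR, where 3.82% of all genes differed (1.71% higher and 2.11% lower in the eosinophil lineage). At an unadjusted p under 0.05 there were 2 by edgeR (*ACKR2* and *CXCL1*) and 5 by DESeq2, which called 2 after adjustment. *ACKR2*, a scavenger of inflammatory CC chemokines, was at 3.13 and 7.74 CPM in the eosinophil lineage.

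Progenitors held *CX3CR1* at 58.6 and 21.1 CPM and *CCR1* at 33.6 and 9.16 CPM. Against the neutrophil lineage *CX3CR1* was higher in both organoids, while *CCR1* was higher in organoid 32.7 and lower in 33.10. Their *CCL3*, at 23.3 and 28.9 CPM, lay in 1 cell of organoid 32.7 and, to 97.6%, in 1 of 2 cells of organoid 33.10. *CCL1*, a ligand of CCR8, was at 543 CPM in the progenitors of organoid 32.7 and at 0 CPM in those of organoid 33.10, and its 630 UMIs came from 2 cells, 98.1% of them from 1. Its receptor gene *CCR8* had 1 UMI in all cells.

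Such single cells weighed on many ligand levels. Of the 78 levels of at least 20 CPM in a fitted lineage and organoid (19 members), 15 had over 50% of their UMIs in 1 cell and 6 had over 90%, while 34 had under 10%. In monocytic cells of organoid 33.10, *CXCL8* had 308 UMIs in 4 cells, 58.1% of them in 1, and fell from 766 to 329 CPM without it. In macrophages of organoid 32.7 it had 1647 UMIs, 37.4% of them in 1 cell, and 146 CPM without it. *CXCL10* reached 52 CPM in the macrophages of organoid 32.7 and 0 CPM in those of organoid 33.10, with 97.0% of its UMIs in 1 cell. *CCL5* was spread over more cells, with 25.2% of its 4377 UMIs of organoid 32.7 in 1 cell and 456 CPM without it. *CCL2* in the megakaryocyte lineage of organoid 32.7 (28.2 CPM, against 6.27 CPM in the other organoid) had 72.4% in 1 cell. With the highest cell of each gene left out in each lineage and organoid, 47 of the 55 member calls of all comparisons were kept.

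**Figure D4:**
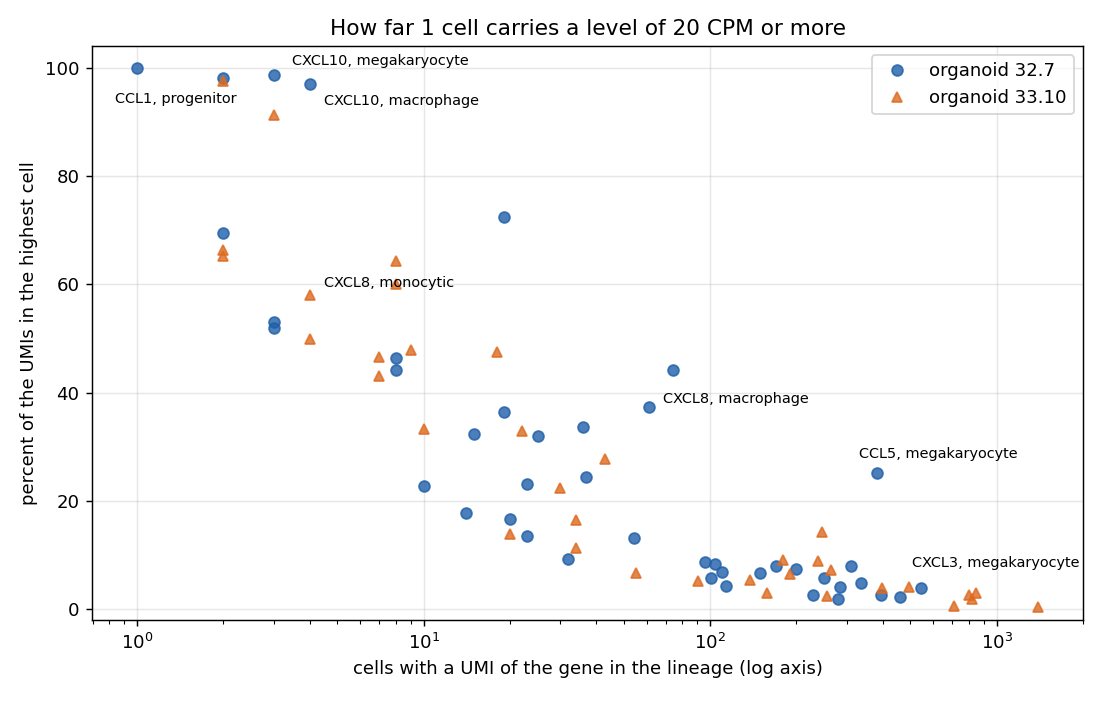
Share of a member's UMIs that came from its highest cell (percent, vertical) against the number of cells with a UMI of it in the lineage (log axis), for each member, lineage and organoid at 20 CPM or more, circles for organoid 32.7 and triangles for 33.10. Of the 78 points 15 lie above 50%, among them *CCL1* in progenitors and *CXCL10* in macrophages and in the megakaryocyte lineage, and 34 lie under 10%.

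Endothelial cells carried few chemokine transcripts, and those called were venous. *CXCL16* was at 16.9 and 17.8 CPM in venous and 1.60 and 1.55 CPM in arterial endothelium. *CCL14*, a CCR1 ligand, was at 8.19 and 6.41 CPM against 0.474 and 0.282 CPM, with 2.30 and 1.34 CPM in other endothelium. *CCL23* was at 6.82 and 6.84 CPM against 2.78 and 2.54 CPM, with 4.18 and 5.05 CPM in other endothelium. The organoids were close to each other and the groups did not overlap. *ACKR1*, which venules use to carry chemokines across the vessel wall, was at 1.36 and 1.16 CPM in venous endothelium and had no UMI in arterial endothelium.

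Between arterial and venous endothelium 4 of the 37 members differed, all lower in arterial cells, where 14.3% of all genes differed (7.22% higher and 7.03% lower). The median log2 fold change was -0.50 over the members and 0.06 over all genes. From venous to arterial, *CXCL16* fell by 3.31 ± 0.32 on the log2 scale (edgeR adjusted p = 2.31e-07), *CCL14* fell by 4.07 ± 0.54 (edgeR adjusted p = 0.000117) and *CCL23* fell by 1.22 ± 0.36 (edgeR adjusted p = 0.0269). The call of *CCL23* was lost without either organoid (edgeR adjusted p = 0.259 without 32.7 and 0.323 without 33.10). *ACKR1* had 0 against 19 UMIs, at least 13.2-fold lower with 3 UMIs over the group as the floor (edgeR adjusted p = 0.000412). *CXCR4* and *ACKR3*, the receptors of CXCL12, went the other way, with *CXCR4* at 381 and 370 CPM in arterial and 43.0 and 33.5 CPM in venous cells and *ACKR3* at 95.8 and 67.4 CPM against 7.69 and 4.95 CPM. Of the genes of receptor signalling *GNAI2* and *PIK3CG* were higher and *DOCK2* and *RGS2* lower in arterial cells, and of 10 immediate early genes 6 were higher there.

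In the tissue outside the vessels, *CXCL14* was high in epicardial cells and both mesenchymal lineages, and *CCL21* in epicardial cells and other mesenchyme. *CXCL14*, a chemokine of epithelia and stroma whose receptor is debated, was at 154 and 258 CPM in epicardial cells, 180 and 220 CPM in *LUM*-high mesenchyme, 111 and 170 CPM in other mesenchyme and 40.8 and 75.3 CPM in cardiomyocytes. *CCL21*, the lymphatic ligand of CCR7, was at 138 and 130 CPM in epicardial cells, 51.7 and 76.8 CPM in other mesenchyme, 3.67 and 15.5 CPM in *LUM*-high mesenchyme and 3.24 and 3.11 CPM in cardiomyocytes. *CCL2* was at 65.9 and 48.5 CPM, 52.6 and 28.3 CPM and 85.9 and 32.7 CPM in epicardial, *LUM*-high and other mesenchymal cells, and at 2.33 and 1.51 CPM in cardiomyocytes. All of these groups lay above the cardiomyocytes in both organoids. *CCL7*, a neighbour of *CCL2* with the same receptor, was at 13.6 and 2.16 CPM in epicardial cells and 0 and 0.0888 CPM in cardiomyocytes. *CXCL12* was at 72.3 and 62.5 CPM in epicardial cells and 40.4 and 27.4 CPM in cardiomyocytes.

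**Figure D5:**
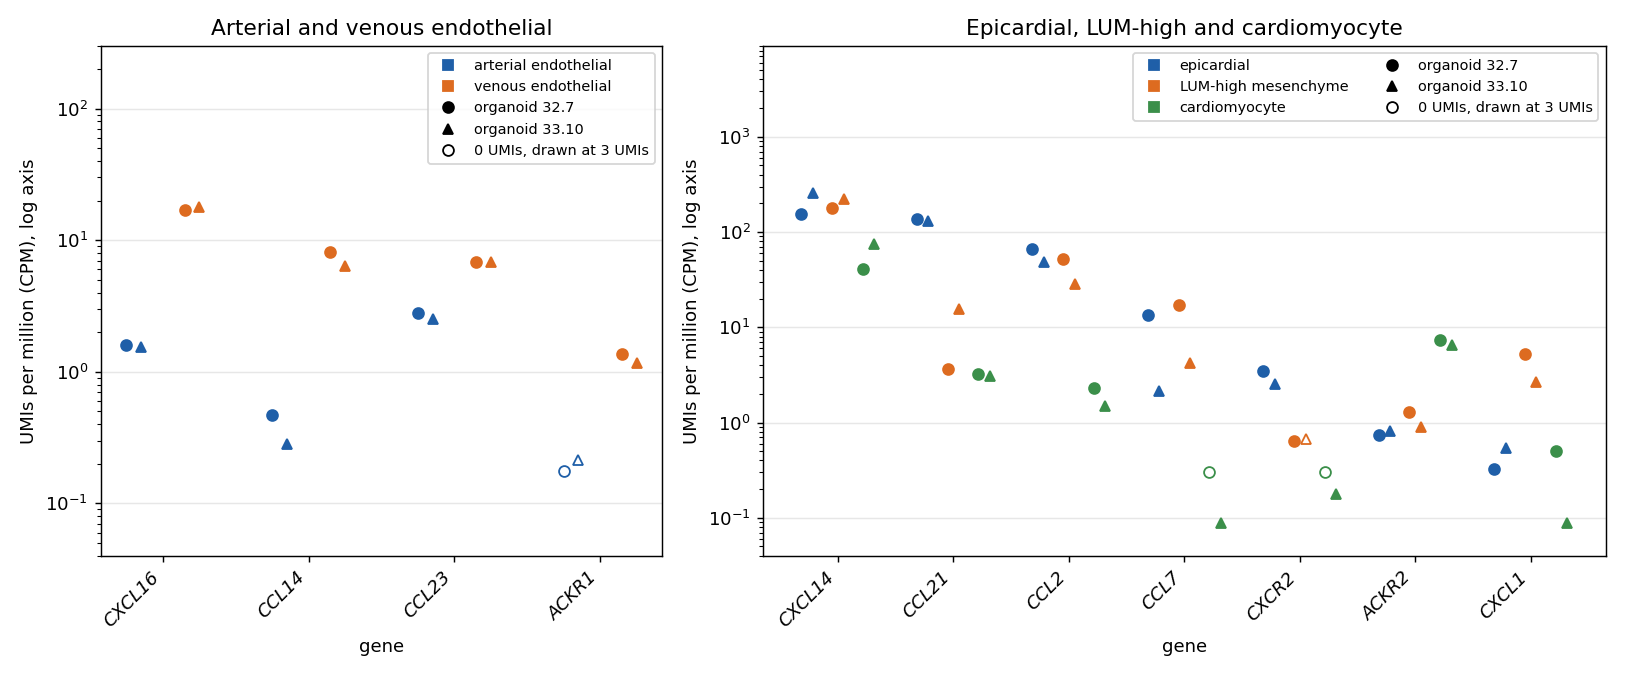
Levels (CPM, log axis) of ligands and receptors in arterial and venous endothelium (left) and in epicardial cells, *LUM*-high mesenchyme and cardiomyocytes (right), circles for organoid 32.7, triangles for 33.10 and open symbols for 0 UMIs, drawn at 3 UMIs. *CXCL16* lies at 16.9 and 17.8 CPM in venous and 1.55 and 1.60 CPM in arterial cells, and *CCL21* lies at 130 and 138 CPM in epicardial cells and between 3.11 and 15.5 CPM in *LUM*-high mesenchyme and cardiomyocytes.

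Epicardial cells and cardiomyocytes differed in 11 of the 37 members, where 39.3% of all genes differed (20.3% higher and 19% lower in epicardial cells). In epicardial cells 7 were higher and 4 lower, and the median log2 fold change was 0.00 over the members and 0.01 over all genes. *CCL21* differed by 5.26 ± 0.44 on the log2 scale (edgeR adjusted p = 2.76e-09), *CCL2* by 4.77 ± 0.86 (edgeR adjusted p = 0.00011), *CXCL14* by 1.69 ± 0.36 (edgeR adjusted p = 0.000587) and *CCL28*, a mucosal ligand of CCR10, by 1.98 ± 0.60 (edgeR adjusted p = 0.012). *CCL7* gave a ratio of 142 (exact 95% counting interval 25.2 to 5637, edgeR adjusted p = 0.00151). *CXCL6* had no UMI in cardiomyocytes and was at least 8.69-fold higher in epicardial cells (edgeR adjusted p = 0.00133). *CXCR2*, the receptor of the CXCL1 to CXCL8 group, was at 3.51 and 2.54 CPM in epicardial cells and 0 and 0.178 CPM in cardiomyocytes, a ratio of 30.9 (8.30 to 259; edgeR adjusted p = 0.000252). It was the only receptor that was higher in epicardial cells by this test. The highest mean of *CXCR2*, however, was in monocytic cells (4.66 and 9.95 CPM). Without organoid 32.7 *CCL7* lost its call, and *CCL28* lost it without either organoid.

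Cardiomyocytes had more of *ACKR2*, at 7.29 and 6.57 CPM against 0.734 and 0.809 CPM (log2 fell by 3.27 ± 0.41 toward epicardial cells, edgeR adjusted p = 1.8e-06). *CX3CR1* was also higher there, at 1.42 CPM in both organoids (log2 fell by 2.92 ± 0.79, edgeR adjusted p = 0.00508), a low level beside that in macrophages, and lost its call without either organoid (edgeR adjusted p = 0.0918 without 32.7 and 0.0517 without 33.10). *CCL5*, at 7.19 and 6.40 CPM in cardiomyocytes and 2.36 and 3.56 CPM in epicardial cells, fell by 1.29 ± 0.50 (edgeR adjusted p = 0.0463). Its call was kept under 5 of the 11 alternatives with both organoids. It was lost with the organoid as a block (edgeR adjusted p = 0.059), with the DESeq2 test and without the highest cell of each gene. The 6 chemokine family genes outside the symbol rule include *PF4* and *PPBP*. They summed to 114 and 259 CPM in cardiomyocytes and 77.4 and 151 CPM in epicardial cells. The part of free RNA in these *CCL5* levels was not tested. *CCR4* rested on 0 against 4 UMIs. The calls of *CCL5* and *CCR4*, too, were lost without either organoid. *CCR10*, a receptor known from skin-homing T cells, was found at low levels in all tissue lineages, at 9.11 and 11.7 CPM in cardiomyocytes, 11.1 and 6.07 CPM in *LUM*-high mesenchyme and 8.48 and 6.74 CPM in epicardial cells. *CXCL17*, a mucosal chemokine, had its highest mean in epicardial cells (3.42 and 4.75 CPM).

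After thinning to 3000 UMIs *CXCL14* was found in 27.3% and 37.7% of epicardial cells, 7.41% and 10.4% of cardiomyocytes and 0.673% and 0.936% of erythroid cells (45.3% and 60%, 10.9% and 16%, and 2.36% and 3% without thinning). *CCL21* was found in 16.6% and 16.2% of epicardial cells and 0.168% and 0.25% of erythroid cells (32.8% and 36.3%, and 1.18% and 1.19% without thinning). For *CCL2* the thinned shares were 25.4% and 44.4% of macrophages, 7.62% and 6.54% of epicardial cells and 0.842% and 0.562% of erythroid cells. The shares named for the other lineages were above those in erythroid cells. Erythroid cells were not the only blood lineage with some of these transcripts, and *CCL2* was found in 6.35% and 2.30% of progenitors after thinning. The part of free RNA in these shares was not tested. The median depth of erythroid cells was 14978.5 and 9993 UMIs, against 11919 and 11484 UMIs in epicardial cells, 5739.5 and 7615 UMIs in cardiomyocytes and 11553.5 and 13779 UMIs in macrophages.

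Epicardial cells and *LUM*-high mesenchyme differed in 3 of the 37 members, where 6.08% of all genes differed (3.13% higher and 2.95% lower in epicardial cells). *CCL21* was higher in epicardial cells by 3.94 ± 0.41 on the log2 scale (edgeR adjusted p = 2.21e-06), as was *CXCR2* by 2.62 ± 0.74 (edgeR adjusted p = 0.0358), while *CXCL1* fell by 3.31 ± 0.79 (edgeR adjusted p = 0.0124). *CXCL1* was at 0.326 and 0.540 CPM in epicardial cells and 5.23 and 2.70 CPM in *LUM*-high mesenchyme. Of the 3 calls that of *CCL21* held without either organoid. *CXCL1* (edgeR adjusted p = 0.69 without 32.7 and 0.0813 without 33.10) and *CXCR2* (edgeR adjusted p = 0.169 and 0.215) were lost without either. *CXCL14* was not called, with 154 and 258 against 180 and 220 CPM.

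Over all lineages the mean log level of the 7 blood lineages was compared with that of the other 7, where 67.4% of all genes differed (26.2% higher and 41.2% lower in blood). Of the 37 members 14 differed, 8 higher and 6 lower in blood. This contrast has no usable value for a gene that is at 0 in both organoids of a lineage, which was so for 26 of the 37 members. Of the 11 members with a UMI in every lineage 8 differed, where 72.9% of such genes did. *CCR1* (5.28 ± 0.57, edgeR adjusted p = 2.61e-08), *CXCL8* (4.26 ± 1.18, edgeR adjusted p = 0.00299), *CCL3* (3.87 ± 1.13, edgeR adjusted p = 0.00452), *CX3CR1* (3.04 ± 0.57, edgeR adjusted p = 6.59e-05), *CXCL3* (2.31 ± 0.34, edgeR adjusted p = 2.32e-06) and *CXCL2* (1.97 ± 0.36, edgeR adjusted p = 4.12e-05) were higher in blood on the log2 scale. *CXCL14* fell by 2.80 ± 0.40 (edgeR adjusted p = 1.71e-06) and *CCL21* fell by 2.77 ± 0.44 (edgeR adjusted p = 6.99e-06). *CCR1* ranged from 0.0467 to 123 CPM (median 13.1) over the 14 blood libraries and from 0 to 0.691 CPM (median 0.162) over the 14 others, and *CXCL14* from 0 to 7.91 CPM (median 2.12) and from 0.620 to 258 CPM (median 58.1). For all 14 called members the blood and other libraries overlapped.

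Genes whose levels over the 28 libraries were most like those of a described member were named by Spearman's correlation, which is a description, since libraries of 1 organoid share their depth. *CCR1* was most like *SMIM25* (0.921), *PARVG* (0.907) and *FGD2* (0.906). *CX3CR1* was most like *HAVCR2* (0.901), *CLEC7A* (0.834) and *IGSF6* (0.826), and *CXCL8* like *FGL2* (0.916), *CLEC7A* (0.835) and *FCGR3A* (0.830). *CCL2* was most like *CALHM2* (0.899), *CST3* (0.863) and *SRA1* (0.855), and *CCL3* like *SPP1* (0.870), *ST18* (0.857) and its copy *CCL3L1* (0.832). *CXCL14* was most like *AL159166.1* (0.862), *PLA2G5* (0.859) and *TRIM55* (0.856).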

How the data were processed

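Transcripts of single cells from 2 organoids (day 14) were counted. The deposited counts are whole UMI numbers for each gene and barcode, which the authors made with Cell Ranger (7.0.0 per the file headers) on GRCh38 with intronic reads included. Neither depth equalization nor removal of free RNA had been applied to them. The study's cell limits were applied (50 to 11000 genes, below 30% mitochondrial UMIs), which left 16792 and 19893 cells.

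Gates summed raw UMIs of markers, with at least 2 marker genes found and thresholds of 3 to 30 UMIs. Cells that passed several gates (2999 and 3758) or none (3798 and 4218) were left out of the lineages. This removes doublets of unlike cells only where both partners reach their gates. Doublets of like cells, with a partner below its threshold or with a progenitor can stay, and no doublet caller was run. A single fit held the 14 lineages that had 20 or more cells in both organoids (28 libraries) with edgeR's quasi-likelihood test (R 4.3.3, edgeR 4.0.16, TMM, filterByExpr), Benjamini-Hochberg adjustment over 20402 genes and a threshold of 0.05. Lineages of 1 organoid share a library, but the main fit treated the 28 libraries of lineages as independent. Its p-values weigh a difference between lineages against a spread estimated over all 14 lineages. That spread holds both the variation of the 2 organoids and the sampling of cells. The organoid pairs the lineages by source. Over 91 pairs of lineages the correlation of deviations was -0.0564 to 0.374 (median 0.0892), and the organoid as a block was an alternative. The arms were called C1Q-positive and C1Q-negative at planning, although the latter is C1Q-low. Ratios with few UMIs have exact 95% binomial intervals, which, like floors, cover counting error only.

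Members, lists and gates were chosen with earlier results of these data known. Described in full were members at 20 CPM with 10 UMIs in both organoids in the same lineage, and the others were given by counts, by range or when called. The values of 1 member are not reported here, although it is in the counts. The test was checked on simulated counts. Python 3.11.15 with numpy 2.4.6, scipy 1.17.1, pandas 2.3.3 and matplotlib 3.10.9 was used for the rest.

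Alternatives were DESeq2 1.42.0 (its size factors and its test), no filter on low counts, the block, gates halved, doubled or per 10000 UMIs, cells above the 95th percentile of UMIs left out, a stricter cell filter (1500 UMIs and under 15% mitochondrial counts), 10% of each sum removed as the mean profile and each organoid left out. Leaving out the highest cell of each gene was added after the data were seen.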

Additional observations from a re-analysis of the deposited data

Results flagged for a closer look

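*CCL15*, a ligand of CCR1, was found in the endoderm gate, which was outside the tests, at a mean of 17.9 CPM (15.4 and 20.3 CPM from 16 and 4 UMIs in organoids 32.7 and 33.10). The highest level in any fitted lineage was 1.36 and 0.728 CPM. The gate held 147 and 12 cells.

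*CXCL13*, the ligand of CXCR5, was at a mean of 0.972 CPM in cells that passed no gate (0.787 and 1.16 CPM from 7 and 15 UMIs), with 0.735 and 0.704 CPM as the highest levels in a fitted lineage. The margin is small beside the counting error of so few UMIs.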

How the results depend on the processing

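With all members called in the pairwise and mean comparisons taken as 55 results, 24 kept their side of the threshold under every alternative run, 31 lost it under at least 1 and 0 turned. Most losses came without an organoid (19 without 32.7, 15 without 33.10) and with 10% of the mean profile removed (14), and 8 came without the highest cell of each gene. Between macrophages and monocytic cells the 1 call became 0 with DESeq2 size factors, with the DESeq2 test, with gates halved, doubled or per 10000 UMIs, without cells above the 95th percentile of UMIs, with 10% removed and without the highest cell, and 6 with no filter, and was 0 to 1 without an organoid. Between monocytic cells and the neutrophil lineage 7 became 11 with no filter, 4 with 10% removed and 1 without either organoid, a different member each time. Between the eosinophil and neutrophil lineages 0 became 2 with DESeq2, 5 with no filter, and 1 with gates doubled or per 10000 UMIs. Without an organoid the number of members called was 11 to 14 between megakaryocyte and erythroid cells (15 with both), 3 between arterial and venous (4), 7 between epicardial cells and cardiomyocytes (11) and 1 to 2 between epicardial and *LUM*-high cells (3), and these numbers can hold members that were not called with both organoids, such as *CCL4* in the last. With no filter the second and the last of these numbers became 11 and 7. The mean of blood over the other lineages went from 14 to 26 with the DESeq2 test and to 6 with 10% removed, when 36 members had an empty lineage, and could not be fitted without an organoid. By DESeq2, 72% of all genes had an unadjusted p under 0.05, as had 26 members. With 10% removed, 48.1% of the genes with an empty lineage and 68.9% of the others were called. The numbers for the pairwise comparisons come without the share over all genes, so they do not set members apart from other genes. With no filter all genes with any UMI were tested, and calls can rest on very few UMIs. The number of members described in full was 13, and 15 to 18 without an organoid. Fits without an organoid left out both arms' libraries of it and kept the other lineages, so the lone samples are assumed to vary like them. With the organoid as a block 54 of the 55 calls were kept. Comparisons with the neutrophil lineage had too few cells to be run with gates halved or without cells above the 95th percentile. Depth limits the low members, 23 of which could not be tested.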
